A study of Mus musculus with 4 samples.

Results

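The complement components described here are the 7 genes C1ra, C1s1, C2, C3, C4a, C4b and Cfb of the mouse cell line C3H10T1/2. They were taken by gene symbol from the mRNA values, in which 17 of 75959 transcripts carry these symbols, and the transcripts of each gene were summed to 1 value per sample, giving 7 of 21878 genes. C3H10T1/2 cells are multipotent mesenchymal cells that came from C3H mouse embryos, and 5-AZA (5-azacytidine) is a modified cytidine known to lower the methylation of DNA. RNA depleted of ribosomal RNA was sequenced in 4 samples. Untreated replicates 1 and 2 received no drug, whereas 5-AZA replicates 101 and 102 were given 20 μM of it over 72 hours and were then kept for 21 days in fresh medium. A culture time is not given for the untreated samples, so treatment and time in culture cannot be told apart. The paper calls the samples of a group biological repeats and the labels do not say whether they came from separate cultures, so p-values measure the spread between these samples. All 4 samples come from 1 cell line.

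Complement is a cascade of blood proteins in which each activated component cuts the next. In the classical pathway the proteases C1r and C1s cut C4 and C2, and the fragments form an enzyme that cuts C3, the central component. In the alternative pathway factor B joins cut C3 and makes a second enzyme of the same specificity, which amplifies the deposit of C3 fragments on surfaces. The liver is the main source of these proteins in the body, and fibroblasts, adipocytes and other cells of connective tissue also make them.

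After 5-AZA C3, C4b, C2 and Cfb, the components that form or feed the enzymes cutting C3, were called higher. C1ra and C1s1, the proteases that start the classical pathway, differed by less than 2-fold, and C4a was not called. Calls required more than 2-fold and an adjusted p-value under 0.05, from limma on log2(FPKM + 0.1) over the 13199 genes with a mean of at least 0.1 FPKM and Benjamini-Hochberg adjustment over all of them. FPKM counts fragments per kilobase of transcript, relative to all fragments sequenced. Thus 4 of the 7 genes were called higher and 0 lower, where 13.1% of all genes tested were called higher and 1.32% lower. The median log2 fold change was 2.16 over the 7 genes and 0.05 over all genes tested. All 7 passed the limit on low values. C2 and Cfb passed it only through their 5-AZA values, with untreated means of 0.0300 and 0.0324 FPKM. In each of the 7 genes both 5-AZA values lay above both untreated values, which was also so for 36.8% of all genes tested (62.2% did not overlap in either direction). Calls in either direction made up 14.4% of all genes tested, and 90.8% of them were higher, against 54% after quantile normalization.

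**Figure D1:**
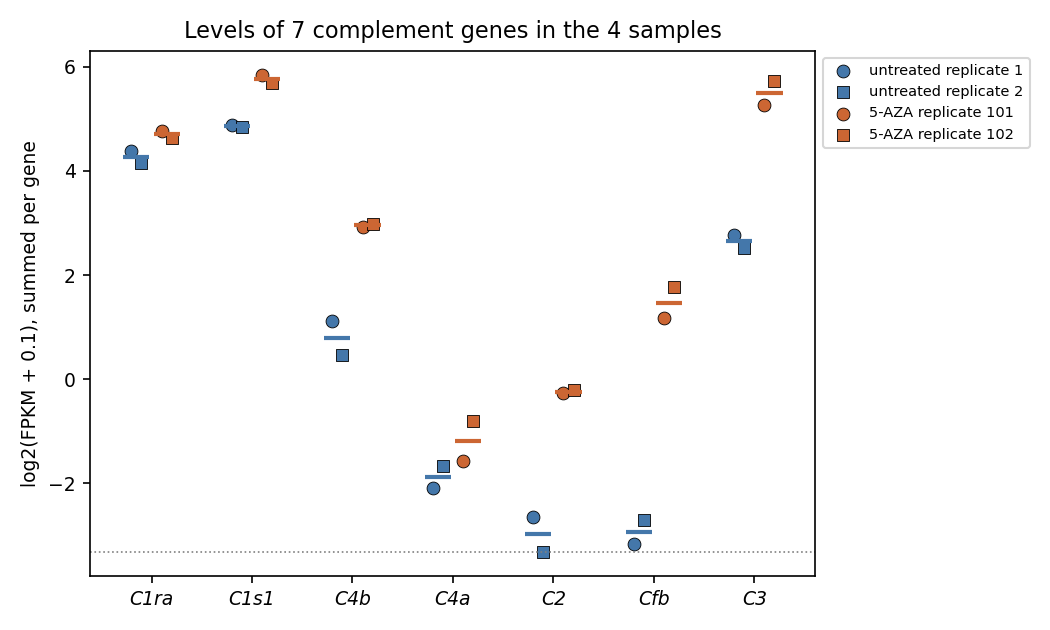
Level of each of the 7 complement genes, as log2(FPKM + 0.1) of the sum over its transcripts, with 1 point per sample and a short line at the mean of each group. C3, C4b, Cfb and C2 show wide gaps between the untreated (blue) and 5-AZA (orange) samples, C1ra and C1s1 narrow ones, and the dotted line marks a value of 0 FPKM.

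C1ra encodes the protease C1r, which activates C1s within the first complex of the classical pathway. Its level was 20.9 and 17.8 FPKM in untreated replicates 1 and 2 and 27.3 and 24.8 FPKM in 5-AZA replicates 101 and 102. The groups did not overlap, but the gap between their nearest samples was small beside that of C3. The log2 fold change was 0.43 (standard error 0.12, 95% interval 0.15 to 0.71, adjusted p = 0.0328, limma), so the adjusted p-value passed and the size did not.

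C1s1 encodes C1s, the protease that cuts C4 and C2. It was the most abundant of the 7 genes in both untreated samples, with 29.5 and 28.8 FPKM, and reached 57.7 and 51.8 FPKM in the 5-AZA samples. The values lay well apart between the groups and close together within them. The log2 fold change was 0.90 (standard error 0.10, 95% interval 0.67 to 1.14, adjusted p = 2.76e-04, limma), which fell short of 2-fold, although the interval includes that size. Of its 5 transcripts, NM_001097617.1 carried 71.6% to 75.7% of the gene's FPKM in every sample and NM_144938.2 carried 16.3% to 20.9%. Tested by transcript, NM_144938.2 was called higher, from 5.60 and 4.69 to 12.0 and 10.7 FPKM (log2 fold change 1.13, adjusted p = 0.0468, limma over 35557 transcripts, of which 2.1% were called higher and 2.36% in either direction). NM_001097617.1 was not called, at 0.89 in log2 units (adjusted p = 0.0241, limma). The division of reads among transcripts that share exons is an estimate.

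C4b encodes complement component 4, which becomes part of the enzyme that cuts C3. It was listed at 2.07 and 1.28 FPKM in the untreated samples and at 7.50 and 7.80 FPKM in the 5-AZA samples. The 5-AZA values were nearly equal, and the untreated values differed more. C4b rose by a log2 fold change of 2.16 (standard error 0.23, 95% interval 1.63 to 2.69, adjusted p = 2.02e-04, limma). NM_009780.2 carried 85.3% to 100% of its FPKM and was also called higher by transcript (adjusted p = 0.0400, limma). With 1 of the 5-AZA samples left out, the log2 fold change of C4b was 2.19 without replicate 101 and 2.14 without replicate 102. The adjusted p was then 0.108 and 0.112 (limma), and C4b was not called. Each of these fits has 1 sample in the 5-AZA group, which is assumed to vary like the untreated pair, and over all genes the calls higher fell from 1724 to 925 and 733.

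C4a is the near copy of C4b known as sex-limited protein, and RefSeq lists it as a transcribed pseudogene. It was low in every sample, at 0.135 and 0.215 FPKM in the untreated and 0.233 and 0.468 FPKM in the 5-AZA samples. The highest untreated value nearly reached the lowest 5-AZA value. The log2 fold change was 0.68 (standard error 0.40, 95% interval -0.23 to 1.59, adjusted p = 0.269, limma) and turned to -0.65 after quantile normalization. C4a made up 6.15% and 14.4% of the sum of C4a and C4b in the untreated samples and 3.02% and 5.67% in the 5-AZA samples. Reads that match both genes could be divided between them in the authors' quantification, so the level of C4a is uncertain. The sum of both genes rose by 2.08 in log2 units (adjusted p = 1.45e-04, limma).

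C2 encodes the protease that pairs with cut C4. It was listed at 0.0600 and 0 FPKM in the untreated samples and at 0.730 and 0.762 FPKM in the 5-AZA samples, all from its single transcript NM_013484.2. Both 5-AZA values were above all untreated values, and all 4 were low. C2 rose by a log2 fold change of 2.74 (standard error 0.38, 95% interval 1.87 to 3.61, adjusted p = 9.04e-04, limma). The size of this value rests on the pseudocount, since it was 4.84 with 0.01 FPKM and 0.76 with 1 FPKM, which is under 2-fold. In the same fits without 5-AZA replicate 101 or 102 C2 stayed at 2.77 and 2.71 in log2 units, with an adjusted p of 0.0844 and 0.0891 (limma), and was not called. By transcript the adjusted p was 0.114 (limma).

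Cfb encodes factor B, the protease of the alternative pathway. Its level was 0.0113 and 0.0534 FPKM in the untreated samples and 2.15 and 3.31 FPKM in the 5-AZA samples. The untreated values were near 0, and both 5-AZA values lay far above them. The log2 fold change of 4.40 (standard error 0.34, 95% interval 3.62 to 5.19, adjusted p = 3.15e-05, limma) was the largest of the 7, and 1.58% of all genes tested had a larger one. With pseudocounts of 1 and 0.01 FPKM it was 1.84 and 6.19, and it was called in both. NM_008198.2 carried 98.3% and 98.4% of the FPKM of Cfb in the 5-AZA samples and rose by 4.44 (adjusted p = 0.0261, limma over transcripts). The other 3 transcripts of Cfb stayed below the limit of 0.1 FPKM.

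C3 encodes the component on which the pathways converge. It was listed at 6.72 and 5.63 FPKM in the untreated samples and at 38.2 and 52.7 FPKM in the 5-AZA samples. Both 5-AZA values were several times the untreated ones, and the spread within the 5-AZA group was wider. The mean of C3 rose from 6.18 ± 0.775 FPKM to 45.4 ± 10.2 FPKM (± SD over 2 samples), or by 2.85 on the log2 scale (standard error 0.17, 95% interval 2.46 to 3.23, adjusted p = 6.70e-06, limma). NM_009778.3 carried at least 92.9% of this level in each sample, and the predicted transcript XM_011246258.1 reached at most 0.400 FPKM. In the untreated samples 29.5% and 31.3% of all 21878 genes had a higher level than C3, and in the 5-AZA samples 6.64% and 5.20% had.

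The promoters of 3 of the 7 genes were found in the RefSeq promoter windows, those of C1ra, C1s1 and C3, and these 3 are shown. Of them C3 was called higher and C1ra and C1s1 were not. No window was found for C4b, C2 and Cfb, which were called, or for C4a. Each line holds the 250 bases before the annotated start, 5′ to 3′ along the gene's strand, from build GRCm38.p6. Capitals mark matches on either strand to the letters TTGCNNAA (a core of the sites of C/EBP factors), 3 G, any 5 bases and 2 C (a loose form of the sites of NF-kB), TTCNNNGAA (STAT), GAAA repeated after any 2 bases (interferon-stimulated response element), TGANTCA (AP-1) and TATAAA (a box of core promoters), and matches of a motif can overlap. The window of C3 is chr17:57228137-57228386 on the minus strand, that of C1s1 is chr6:124542360-124542609 on the minus strand, and that of C1ra is chr6:124512371-124512620 on the plus strand.
C3: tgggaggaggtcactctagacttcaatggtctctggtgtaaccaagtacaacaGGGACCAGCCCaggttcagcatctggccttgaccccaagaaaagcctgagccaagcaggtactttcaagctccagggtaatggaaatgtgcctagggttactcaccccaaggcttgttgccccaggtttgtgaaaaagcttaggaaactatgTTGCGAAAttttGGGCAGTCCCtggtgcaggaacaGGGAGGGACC
C1s1: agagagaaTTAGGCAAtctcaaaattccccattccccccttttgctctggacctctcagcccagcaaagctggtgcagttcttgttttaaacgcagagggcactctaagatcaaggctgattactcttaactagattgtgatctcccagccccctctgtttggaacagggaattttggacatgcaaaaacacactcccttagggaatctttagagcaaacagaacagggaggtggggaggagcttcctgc
C1ra: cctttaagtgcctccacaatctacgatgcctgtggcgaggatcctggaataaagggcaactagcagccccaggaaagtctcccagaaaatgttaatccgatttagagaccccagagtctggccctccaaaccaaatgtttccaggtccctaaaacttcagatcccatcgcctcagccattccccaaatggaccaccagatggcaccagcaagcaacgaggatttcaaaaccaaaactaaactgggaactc
In C3 the match TTGCGAAA lies from base -45 to -38 relative to the start, and GGGCAGTCCC follows it from base -33 to -24. The window of C3 also has overlapping matches from base -197 to -187 and the match GGGAGGGACC at its end. C1s1 has TTAGGCAA from base -242 to -235, and a second annotated start of this gene adds GGCCACTCCC. No searched letters were found in the window of C1ra. A match to TTGCNNAA was present in 9.56% and one to the NF-kB letters in 45.8% of 32851 promoter windows of the same length, so the latter is common. As for CpG, the dinucleotide that DNA methylation uses, the windows of C3 and C1s1 each hold 1 and that of C1ra holds 5, against a median of 6 over all windows. A total of 18.8% of all windows had 1 CpG or none. These are matches of letters, and no binding or methylation was measured.

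Per length, the order of the levels in the untreated samples was C1s1, C1ra, C3 and C4b, and C4a followed at 0.135 and 0.215 FPKM. C2 and Cfb were lowest, and their values overlapped. In the 5-AZA samples C3 lay above C1ra and overlapped with C1s1. Cfb lay above C2 and C4a in the 5-AZA samples, and C2 above C4a.

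The FPKM of the 7 genes summed to 59.4 and 53.8 in the untreated samples and to 134 and 142 in the 5-AZA samples, a ratio of means of 2.43. C1ra and C1s1 together made up most of the sum in the untreated samples, with 35.2% and 33.0% from C1ra and 49.7% and 53.6% from C1s1. C3 made up 11.3% and 10.5% of the untreated sum and 28.5% and 37.2% of the 5-AZA sum. Cfb made up 0.0191% and 0.0993%, and then 1.61% and 2.33%. The makeup thus shifted toward C3 in both 5-AZA samples, with the share of C1ra at 20.4% and 17.5%.

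**Figure D2:**
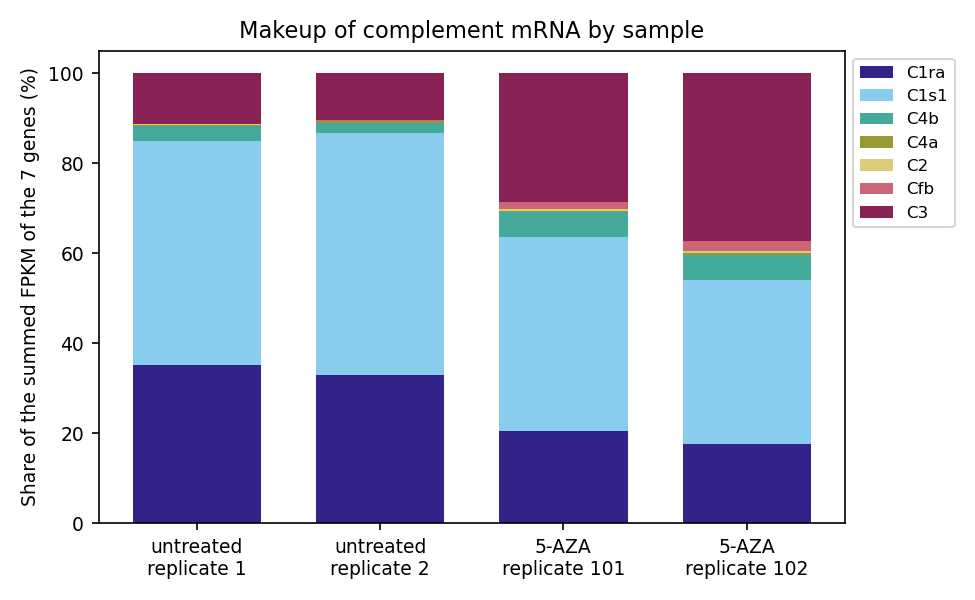
Share of each of the 7 genes in their summed FPKM (percent), with 1 bar per sample. C3 grows from 11.3% and 10.5% in the untreated samples to 28.5% and 37.2% in the 5-AZA samples, and C1ra and C1s1 take smaller shares.

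A further 52 complement genes were listed by role, and 22 of them passed the limit on low values. Of these 8 were called higher and 0 lower. Their median log2 fold change was 0.63, beside 13.1% and 1.32% of all genes and a median of 0.05. Of the 8 called, Serping1, Cpn1 and Cd93 passed the limit only through their 5-AZA values, with untreated means of 0.0633, 0 and 0.0337 FPKM. At the start of the classical and lectin pathways 8 of 15 genes were tested and 1 was called, Fcna, a ficolin (log2 fold change 1.61, adjusted p = 0.0138, limma). C1qa, C1qb and C1qc, the subunits that recognise antibody and join C1r and C1s, were listed at 0 in all 4 samples, as were the lectins Mbl1 and Mbl2. The near copies of the proteases were not called. C1rb, at most 0.412 FPKM, had a log2 fold change of -0.90, and C1s2 had one of 0.21 (adjusted p = 0.226 and 0.686, limma). C1rb took at most 1.93% of its sum with C1ra, and C1s1 at least 94.0% of its sum with C1s2. Summed with these copies, C1ra and C1s1 had log2 fold changes of 0.42 and 0.88.

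Cfd, factor D or adipsin, the protease that cuts factor B and a known product of fat cells, was listed at 0.887 and 0.146 FPKM in the untreated and at 40.8 and 55.6 FPKM in the 5-AZA samples. The log2 fold change of Cfd was 6.60 (standard error 0.52, adjusted p = 3.56e-05, limma). Cfp, properdin, which stabilises the enzyme of the alternative pathway, was not called, at 0.720 and 0.642 against 0.337 and 0.290 FPKM (log2 fold change -0.92, adjusted p = 0.0565, limma). It was called lower after scaling each sample to the same total, median centring and quantile normalization. Of the 7 terminal components only C8g was tested, at -0.43 in log2 units (adjusted p = 0.480, limma), and C6, C8a, C8b and C9 were listed at 0 in every sample. Hc and C7 were below the limit and at 0 in both untreated samples. In the 5-AZA samples Hc was at 0.102 and 0.154 FPKM and C7 at 0.0130 and 0.114 FPKM. Hc was called higher when no limit was set on low values.

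Among 10 soluble regulators 4 were tested and 3 were called higher. Serping1, the inhibitor of C1r and C1s, rose from 0.0482 and 0.0784 to 5.08 and 5.01 FPKM, or by 4.98 in log2 units (adjusted p = 4.18e-06, limma). Cpn1, a subunit of carboxypeptidase N, was listed at 0 in both untreated samples and at 0.225 and 0.613 FPKM in the 5-AZA samples, and was called higher (adjusted p = 0.00801, limma). Clu, clusterin, was at 47.2 and 48.4 FPKM in the untreated and 71.7 and 92.0 FPKM in the 5-AZA samples and stayed under 2-fold. Of 8 membrane regulators Cd55, which breaks up the enzymes that cut C3, was the one called (log2 fold change 2.39, adjusted p = 7.76e-05, limma), and Cr1l, Cd46 and Cd59a were not. Itgb2 and Cd93 were called higher among 3 receptors tested, and reached at most 0.843 and 0.293 FPKM. The receptors of the fragments of C3 and C5, C3ar1 and C5ar1, were below 0.1 FPKM in every sample. Serping1 and Cd55 were called higher in all 14 settings tried. Without 5-AZA replicate 101 the calls were 3, Serping1, Cd55 and Cpn1, and without replicate 102 they were 5, Serping1, Cd55, Colec10, Colec12 and Masp2. Cfd, Fcna, Itgb2 and Cd93 were called in neither of these fits, which have 1 sample in the 5-AZA group.

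**Figure D3:**
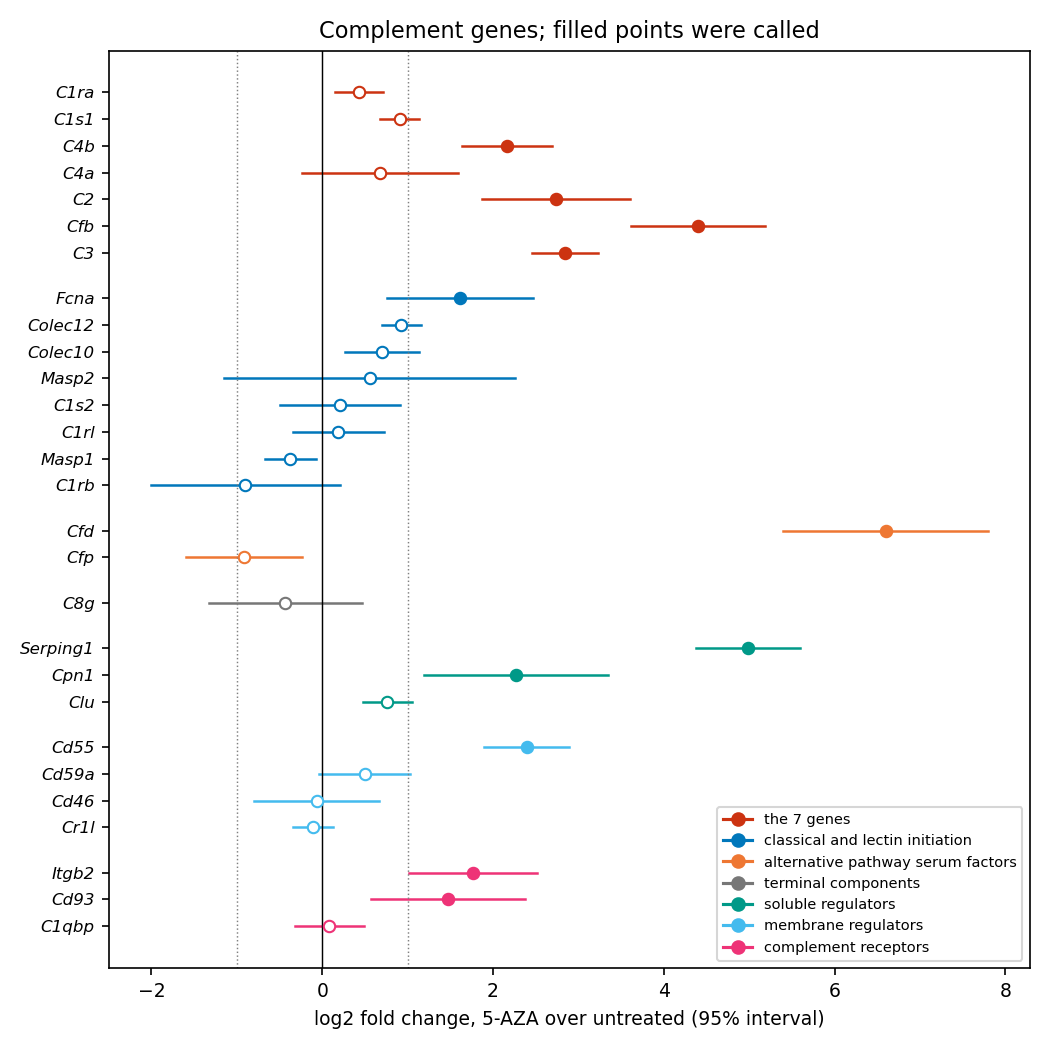
Log2 fold change of 5-AZA over untreated with its 95% interval (limma) for the 7 genes and other complement genes tested, grouped by role. Filled points were called, dotted lines mark 2-fold, and Cfd, Serping1 and Cfb lie farthest to the right.

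Genes of the signals and factors known to raise complement expression were listed as well. Of 24 genes 20 were tested, 6 were called higher and 0 lower, beside 13.1% and 1.32% of all genes tested. Among the 6 were Il6, an inflammatory cytokine, Osmr, the receptor of oncostatin M, Stat2 and Irf7, factors of interferon signalling, and Cebpa, a factor of adipocytes and hepatocytes. Il6 was at 0.621 and 0.240 FPKM in the untreated and 3.21 and 2.72 FPKM in the 5-AZA samples (log2 fold change 2.63, adjusted p = 8.40e-04, limma), and Cebpa rose by 2.61 (adjusted p = 2.02e-05, limma). Nfkb1, Rela and Il1r1 were not called, with log2 fold changes of -0.06, 0.03 and -0.04. Relb, Cebpb, Cebpd and Irf1 stayed under 2-fold and were not called either, at 0.92, 0.77, 0.76 and 0.73 (adjusted p = 0.0218, 0.00108, 0.00381 and 0.00225, limma). Of the 20 tested 18 had positive and 2 negative log2 fold changes, beside 7285 positive and 5914 negative over all genes tested. Il1b was listed at 0 in all samples. Of 12 acute phase genes 9 were tested, 6 were called higher and 0 lower, beside the same 13.1% and 1.32% of all genes tested. Hp, haptoglobin, was called higher, from 5.13 and 4.68 to 17.7 and 24.1 FPKM. So was Orm1, orosomucoid, listed at or almost at 0 in the untreated and at 4.32 and 9.28 FPKM in the 5-AZA samples. Of the genes called, Saa3, Orm1, Orm2 and Steap4 passed the limit on low values only through their 5-AZA values. Their untreated means were 0 for Saa3, almost 0 for Orm1 and Orm2 and 0.0227 FPKM for Steap4. Cp, Ptx3 and Serpina3n were not called.

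Marker lists of other cells moved with the treatment in part. Their counts of calls stand beside 13.1% of all genes tested called higher and 1.32% lower. Some of the markers called higher passed the limit on low values only through their 5-AZA values. These were Tnni2, Myog, Myod1, Ckm and Myh3 for muscle, Cidec and Cd36 for adipocytes, Fcer1g for macrophages and Ahsg for hepatocytes. Their untreated means ran from 0 FPKM in Myod1 to 0.0909 FPKM in Tnni2. All 10 skeletal muscle markers were called higher, with sums of 1.80 and 1.71 FPKM in the untreated and 1061 and 1590 FPKM in the 5-AZA samples. Of the 7 adipocyte markers tested 6 were called higher, and the sums over the list were 45.3 and 30.1 against 1101 and 1513 FPKM. In such bulk samples more or fewer cells of a type cannot be told apart from more or less RNA per cell. The part of the muscle and fat markers in the complement values was not tested. Of 10 macrophage markers Adgre1, Tyrobp and Aif1 were listed at 0 in all samples and Ptprc and Csf1r stayed below 0.1 FPKM. The sum of that list went from 4.62 and 5.81 to 16.0 and 19.5 FPKM, of which Fcer1g gave 9.57 and 10.9 FPKM, and Cd68 and Fcer1g were called higher. The hepatocyte list summed to 0.432 to 0.952 FPKM, with Alb at 0 in 3 samples and 0.120 FPKM in 5-AZA replicate 101. Apoa1, Ttr and Fgb were at 0 in all 4, and Apoh was called lower and Ahsg higher. Of 12 mesenchymal markers 11 were tested, with sums of 3831 and 3877 FPKM in the untreated and 2521 and 2817 FPKM in the 5-AZA samples. Vim, vimentin, was the highest of these markers in every sample, with 2268 and 2406 against 1178 and 1380 FPKM, and was not called (log2 fold change -0.87, adjusted p = 0.00119, limma). Of the 11 markers 6 had positive and 5 negative log2 fold changes, with a median of 0.26, and Thy1, at 0.578 and 0.785 FPKM in the untreated samples, was the one called higher. Nt5e reached at most 0.154 FPKM.

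The 7 genes lie in 3 places of the genome. On chromosome 6 C1ra and C1s1 are next to each other, on chromosome 17 C4b, C4a, Cfb and C2 lie together in the major histocompatibility complex, and C3 is farther along chromosome 17. In GRCm38.p6, Cfb spans chr17:34856374-34862514 and C2 spans chr17:34862602-34882100, so they almost touch. Between C4b and C2 stand 5 protein-coding genes that are no complement genes, Cyp21a1, Stk19, Dxo, Skiv2l and Nelfe. Of these 4 were tested and 0 were called, with log2 fold changes from -0.34 to 0.27. Among the 5 genes on either side of this group Tnxb, which encodes tenascin X, was called higher (0.383 and 0.186 against 0.791 and 1.23 FPKM, adjusted p = 0.0154, limma), and 9 others were not. Of the 10 genes beside C1ra and C1s1, which include C1rl, C1rb and C1s2, 8 were tested and Clstn3 was called higher. Clstn3 went from 0.0244 and 0.0307 to 1.60 and 2.59 FPKM, so it passed the limit on low values only through its 5-AZA values. Of the 10 beside C3, 3 were tested and 0 called. Over all genes tested 13.1% were called higher and 1.32% lower. The median log2 fold change of the tested neighbours was 0.20 beside C1ra and C1s1 and -0.04 beside C3. In and beside the group of C4b to C2 it was -0.15, and over all genes tested it was 0.05.

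**Figure D4:**
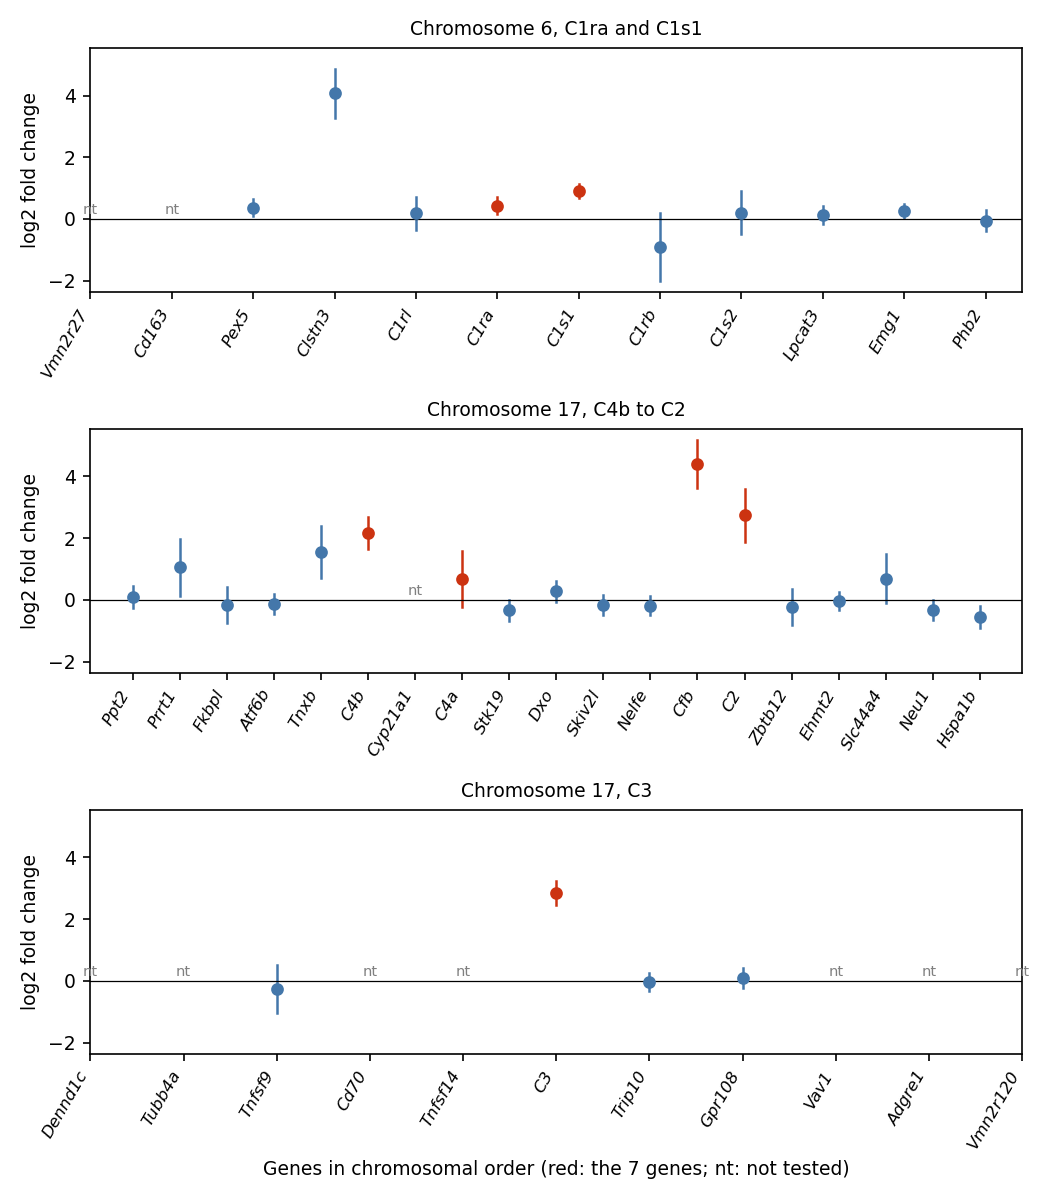
Log2 fold change of 5-AZA over untreated with 95% intervals for the complement genes (red) and their protein-coding neighbours (blue) in chromosomal order, with nt for genes that were not tested. C4b, Cfb and C2 stand above C4a, at 0.68, and above the 4 tested genes between them that are no complement genes, from -0.34 to 0.27.

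For each of the 7 genes the gene with the most similar pattern over the 4 samples was found, by the Euclidean distance between log2(FPKM + 0.1) values centred on their mean, among the 10795 genes whose mean reached 1 FPKM. For C3 it was Adh1, at a distance of 0.12, and for C4b it was Plpp3, at 0.12. Cfb was nearest to Mia at 0.18 and C2 to Apol9a at 0.11. The nearest to C1ra was Rala at 0.03, to C1s1 Fignl2 at 0.06 and to C4a Smco4 at 0.14. With 4 samples in 2 groups, this measure mostly follows the size of the difference between the groups.

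Alternative processing moved the values of the low genes most. The value of C3 ranged from 2.61 to 3.08 over 13 alternatives and was called in each, and Cfb was also called in all 13. C1ra and C1s1 were called in 0 of 14 alternatives, with values of 0.31 to 0.55 and 0.80 to 0.98.

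**Figure D5:**
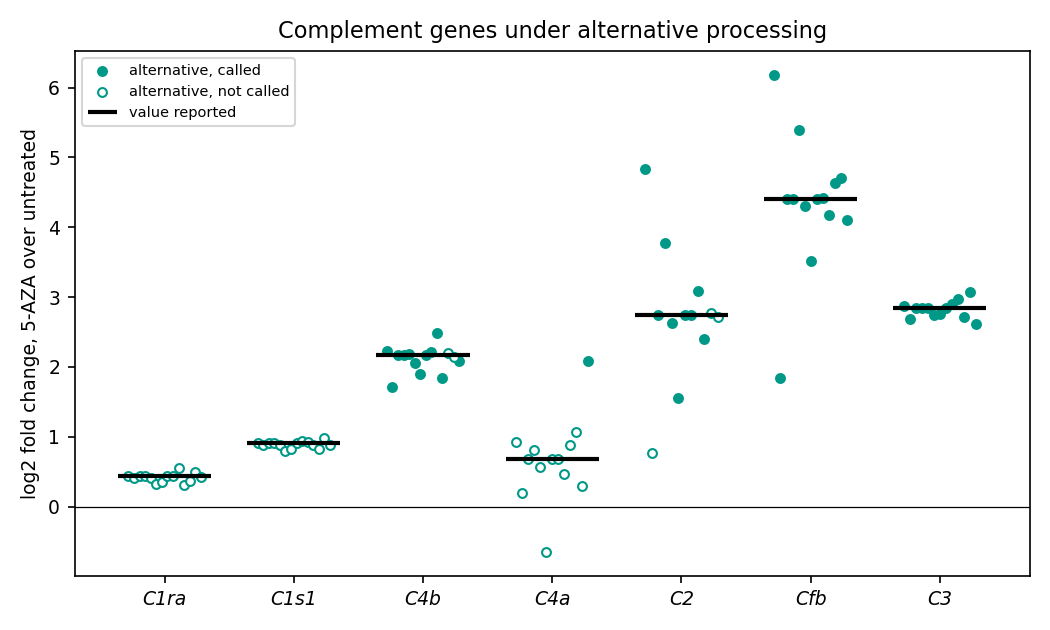
Log2 fold change of the 7 genes under alternative processing, with filled points where the gene was called, open points where it was not and a black line at the value reported. C3 stays between 2.61 and 3.08, Cfb between 1.84 and 6.19, and C4a crosses 0.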

How the data were processed

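Libraries were stranded and depleted of ribosomal RNA, and the authors trimmed the reads with Trimmomatic. The submitters' processing notes also name HISAT2, Bowtie2 2.2.9 and eXpress 1.5.1, with no role, and the build mm9, although 88.9% of the 2142 circRNA host transcripts matched lie within the GRCm38.p6 bounds of their gene, so the deposited coordinates were read as GRCm38. The authors deposited FPKM values per transcript for mRNAs and lncRNAs and RPM values for circRNAs. FPKM sums of mRNAs ran from 328410 to 361664 per sample. RPM steps correspond to 92903364 to 93920706 reads per sample, while whole reads could not be recovered from FPKM, so the depth behind a single mRNA value is unknown.

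Transcripts were summed per gene. All 4 samples entered 1 linear model of log2(FPKM + 0.1) in limma 3.58.1 (R 4.3.3), with a variance prior that follows the mean level, and the script was tested on simulated data. With 2 samples against 2, no permutation can go below p = 0.333. The closing section gives the alternatives tried, of pseudocount, limit, scaling, variance prior, transcripts and samples. The 7 genes, the gene lists and the tests were chosen with earlier results of these data known. Named genes are the 7 complement genes and their transcripts, genes of fixed lists, 5 protein-coding neighbours on each side and the gene of most similar pattern. Sequences are from RefSeq (GRCm38.p6). C2, C4a, C4b and Cfb were not matched there. lncRNAs and circRNAs entered no test. Some genes of the lists enter the counts and are not reported here by name.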

Additional observations from a re-analysis of the deposited data

Results flagged for a closer look

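The lncRNA and circRNA values were used in no comparison above. No circRNA of the 4295 listed has one of the 7 genes as its host, but circRNA_3502, assigned to C1s2, has ends within C1s1 and at C1s2 on chromosome 6 (124542188 to 124636166). It had 4 and 2 junction reads in 5-AZA replicates 101 and 102 and 0 in both untreated samples. A neighbouring junction, circRNA_3503, had 6 reads in untreated replicate 2 and 3 in 5-AZA replicate 102. C1s1 and C1s2 are close copies, and no test was run on so few reads.

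Of the 7 lncRNAs that overlap the genes, 4 reached 0.1 FPKM in a sample. NONMMUT029339.2, within C4a and listed as exonic, was at 1.27 and 4.25 FPKM in the 5-AZA samples, with 0.810 FPKM and almost 0 in the untreated samples. NONMMUT102052.1, which also overlaps C4a, was at 3.45 and 0.727 FPKM in the 5-AZA samples and almost 0 in both untreated samples. The other 2 overlapped between the groups. NONMMUT029338.2, at C4a, was at 0.950 and 0.131 FPKM in the untreated and 0.501 and 1.21 FPKM in the 5-AZA samples. NONMMUT029347.2, at Cfb, was at 0.782 and 0.830 FPKM in the untreated and 0.837 and 0.337 FPKM in the 5-AZA samples. The lncRNA values were scaled apart from the mRNA values, so the levels were not compared with those of C4a.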

How the results depend on the processing

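Limits: 2 samples a group, no depth per gene, near copies that share reads, and low levels of C2, C4a and Cfb, whose fold changes depend on the pseudocount. No paired analysis was possible because the labels give the groups no replicate number in common.

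A pseudocount of 1 FPKM took C2 to 0.76, no longer called, and the counts of all genes called to 875 higher and 86 lower and of other complement genes to 4 higher. Quantile normalization, which shifted the median gene to -0.12, took C4a to -0.65, all genes to 1041 higher and 886 lower, so 54% of calls were higher in place of 90.8%, and other complement genes to 3 higher and 2 lower (C1rb and Cfp). Without a limit on low values 83 genes were lower, and with a mean of at least 1 FPKM 845 were higher, with 4 other complement genes. Scaling each sample to the same total and median centring each called 1 other complement gene lower, Cfp. With NM_ transcripts alone 5 other complement genes were higher. C4a summed with C4b was called (2.08).

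When single samples were left out, the log2 fold change of C2 ran from 2.40 to 3.08 and of C4b from 1.84 to 2.49. Of the 7 genes 2 to 4 were called, with C2 and C4b not called without either 5-AZA sample, at almost the same fold change. All genes called higher ran from 733 to 1617 and lower from 52 to 184, and other complement genes called higher from 3 to 7. Fewer samples entered these fits, and a lone sample in a group is assumed to vary like the other group. For the other alternatives the cause was not tested.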
